A study of Mus musculus with 7 samples.

Results

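Receptors for the constant part of antibodies and the signalling chain behind them were examined in hearts of mice that model myocarditis caused by immune checkpoint inhibitors (ICI). The 7 genes were chosen by name: the IgG receptors Fcgr1, Fcgr2b, Fcgr3 and Fcgr4, the adaptor chains Fcer1g and Tyrobp, and the kinase Syk. All 7 had a row among the 23420 gene rows of the deposited table. The ratio of each activating receptor to Fcgr2b was read in each library as well.

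RNA came from 4 control hearts of genotype Ctla4+/+;Pdcd1-/- and 3 ICI-myocarditis hearts of genotype Ctla4+/-;Pdcd1-/-. Every animal therefore carried the Pdcd1-/- genotype, controls included, and the groups differed by 1 copy of Ctla4. All were 3 to 6 weeks old and labelled as untreated, so the disease state here is set by genotype and not by an inhibitor drug. How the alleles were made, and the sex and litter of the animals, are not given in the sources used here. The tissue is labelled whole heart, while the extraction text names ventricle.

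Receptors of the Fc gamma family bind IgG on macrophages, monocytes, neutrophils, natural killer cells and B cells. The activating receptors Fcgr1, Fcgr3 and Fcgr4 have no signalling motif of their own in mice and rely on the gamma chain encoded by Fcer1g, whose immunoreceptor tyrosine-based activation motif (ITAM) is phosphorylated by Src family kinases and then docks Syk. Fcgr2b is the inhibitory receptor: it carries an inhibitory motif (ITIM) in its own tail, which recruits the lipid phosphatase SHIP1, encoded by Inpp5d. Tyrobp, also called DAP12, is a second ITAM adaptor that serves other myeloid and natural killer receptors such as Trem2.

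The coding stretches of these motifs show the difference between adaptor and inhibitory receptor. Each is read from the first-numbered GENCODE M21 transcript of its gene, with the tyrosine codons in capitals. The Fcer1g stretch covers codons 65 to 79 of 86, the Tyrobp stretch codons 92 to 106 of 114, and the Fcgr2b stretch codons 317 to 322 of 340.
Fcer1g ITAM: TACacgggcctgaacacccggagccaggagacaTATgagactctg
Tyrobp ITAM: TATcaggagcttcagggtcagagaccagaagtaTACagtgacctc
Fcgr2b ITIM: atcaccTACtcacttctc
The adaptor motifs hold 2 tyrosine codons each, and the Fcgr2b motif holds 1.

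The genes of 3 receptors and of the gamma chain lie close together on chromosome 1 (GRCm38 coordinates from GENCODE M21). Fcgr2b lies at chr1:170958617-170976547 on the minus strand, Fcgr4 at chr1:171018920-171029761 on the plus strand, Fcgr3 at chr1:171051174-171064935 on the minus strand and Fcer1g at chr1:171229572-171234365 on the minus strand. Fcgr1 stands apart from that cluster at chr3:96282909-96293969 on the minus strand. Tyrobp lies at chr7:30413760-30417585 and Syk at chr13:52583173-52648792, both on the plus strand. Fcgr2b and Fcgr3 share 94 exact windows of 75 bases with each other, which is 7.38% of the windows of Fcgr3, so reads could be split between them. With further genes counted as well, Fcgr2b shares 246 windows of 75 bases, or 7.09% of its own. No window of 150 bases of any of the 7 is shared with another gene. Fcgr2b also overlaps the antisense gene Gm38204, which has no row in the table. Whether the counting used strand is not given in the sources used here.

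Sequence before the start site is shown for 3 activating receptors, as the receptors that share the gamma chain. The stretches are RefSeq sequence (GRCm38.p6) at chr3:96293970-96294119 on the minus strand for Fcgr1, chr1:171018776-171018919 on the plus strand for Fcgr4 and chr1:171059404-171059553 on the minus strand for Fcgr3, whose RefSeq start lies inside the GENCODE gene. Capitals mark matches, on either strand, to GGAAGT or to GAAA repeated after any 2 bases, letters known in that order from PU.1 sites and interferon response elements. These motifs were picked after the sequences had been seen.
Fcgr1 promoter: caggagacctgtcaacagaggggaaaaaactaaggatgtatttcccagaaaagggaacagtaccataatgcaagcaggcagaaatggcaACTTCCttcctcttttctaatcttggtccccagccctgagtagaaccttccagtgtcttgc
Fcgr4 promoter: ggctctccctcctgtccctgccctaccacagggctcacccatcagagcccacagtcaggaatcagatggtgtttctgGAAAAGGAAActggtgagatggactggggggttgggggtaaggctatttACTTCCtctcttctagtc
Fcgr3 promoter: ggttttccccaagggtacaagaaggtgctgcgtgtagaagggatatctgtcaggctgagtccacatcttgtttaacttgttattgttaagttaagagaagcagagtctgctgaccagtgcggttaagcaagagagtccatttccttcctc
Fcgr1 has GGAAGT beginning 61 bases before the start. Fcgr4 has the repeated GAAA at 73 bases and GGAAGT at 24 bases. The Fcgr3 stretch holds neither. In the windows not shown, Fcgr2b (log2 fold change 2.43) has GGAAGT at 31 bases, and Fcer1g (3.10) and Syk (0.93) have no match. Tyrobp had no window here. Any link between matches and fold changes was not tested. Over all 32851 RefSeq promoter windows of 250 bases, 2.98% hold the repeated GAAA and 19.7% hold GGAAGT. A match describes letters and is not a measured binding site.

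Recovered reads per library ranged from 20931730 to 39037176. On the first principal component, which held 68.6% of the variance, control 2 lay at 2.25, between the other controls (-96.7 to -61.2) and the ICI-myocarditis libraries (58.9 to 105). Among the named genes checked with a library left out, fold changes that leaving out control 2 moved by over 1.5 times are given with and without it. Klrc2 and Klrb1c, named below as not called, were not among the genes checked, and control 2 was their highest control. The genotype genes were read first: Ctla4 stood at 29.2, 114, 69.2 and 41.3 normalized counts in controls 1 to 4 and at 282, 251 and 373 in ICI-myocarditis 1 to 3. Pdcd1 stood at 9.07, 244, 3.35 and 2.50 in the controls and at 1481, 1096 and 1340 in ICI-myocarditis hearts, although all are labelled Pdcd1-/-. Which part of either gene is deleted is not given in the sources used here, so these totals do not check the labels. The summed cardiomyocyte markers stood at 1230122 to 2479575 in controls and 772813 to 1346975 in ICI-myocarditis hearts, and none of the 8 passed the test. Their median log2 fold change was -0.79. For Myh6, Tnni3 and Ryr2 all ICI-myocarditis libraries lay below all controls, as for 11.3% of all genes tested, and the others overlapped.

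All 7 genes were higher in ICI-myocarditis hearts, and in each the 3 ICI-myocarditis libraries lay above the 4 controls. For comparison, 11.7% of the 15258 genes tested were called higher (15.7% in either direction) and 17.3% had all ICI-myocarditis libraries above all controls. A gene was called at an adjusted p-value under 0.05 from limma, a linear model fitted across all genes tested on log2(normalized count + 1). Fold changes are on that scale unless a fold of group means is named, and the ± values are SD. In bulk tissue, more cells of a type and more RNA per cell cannot be told apart.

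Fcgr4, the activating receptor for mouse IgG2a and IgG2b, moved most among the 7. It stood at 29.2, 302, 62.5 and 35.03 normalized counts in controls 1 to 4 and at 3060, 2350 and 5492 in ICI-myocarditis 1 to 3. Control 2 was far above the other controls, yet well below every ICI-myocarditis library. Group means were 107 ± 131 (n = 4) and 3634 ± 1648 (n = 3), a 33.9-fold difference. The log2 fold change was 5.65 (SE 0.716, limma adjusted p = 0.00316). Without control 2 it was 6.37, and edgeR on recovered reads gave 5.05. Only 24 of the genes tested had a larger log2 fold change.

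Fcgr1, the high-affinity IgG receptor, came next among the receptors. Its values were 69.6, 243, 169.7 and 104 in the controls and 1161, 1178 and 2276 in ICI-myocarditis hearts. Controls 1 and 4 were low and control 2 was again highest of its group, while ICI-myocarditis 3 stood above the other two. The log2 fold change was 3.46 (SE 0.430, limma adjusted p = 0.0031), with group means of 146.5 ± 76.6 (n = 4) and 1539 ± 639 (n = 3), a 10.5-fold difference.

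Fcgr3, the low-affinity activating receptor, had the highest control level of the 4 IgG receptors, also per length. It stood at 463, 635, 728 and 651 in the controls and at 3172, 2345 and 4537 in ICI-myocarditis hearts. The controls lay close together, and every ICI-myocarditis library was several times higher. Its log2 fold change was 2.40 (SE 0.259, limma adjusted p = 0.00251), with means of 619 ± 112 (n = 4) and 3351 ± 1107 (n = 3).

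Fcgr2b, the inhibitory receptor, rose as well. It stood at 304, 453, 365 and 353 in the controls and at 1177, 1757 and 3722 in ICI-myocarditis hearts. The ICI-myocarditis libraries differed 3.16-fold among themselves, the widest spread of the 7 genes within that group, with library 3 highest and library 1 lowest. The log2 fold change was 2.43 (SE 0.354, limma adjusted p = 0.00405), and group means were 368.5 ± 62.1 (n = 4) and 2219 ± 1334 (n = 3), a 6.02-fold difference.

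Fcer1g, the gamma chain on which the activating receptors depend, stood at 227, 361, 249 and 228 in the controls and at 1576, 1917 and 3754 in ICI-myocarditis hearts. Control 2 was the high control, and ICI-myocarditis 3 stood above the other two. The log2 fold change was 3.10 (SE 0.314, limma adjusted p = 0.00251), with means of 266 ± 64.3 (n = 4) and 2415 ± 1172 (n = 3).

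Tyrobp had another order among the inflamed hearts. It stood at 248, 464, 391 and 460.4 in the controls and at 2853, 1619 and 2632 in ICI-myocarditis hearts. It was the only one of the 7 genes for which ICI-myocarditis 3 was not highest. The log2 fold change was 2.60 (SE 0.288, limma adjusted p = 0.00251), with means of 391 ± 101 (n = 4) and 2368 ± 658 (n = 3).

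Syk, the kinase that docks on phosphorylated ITAMs, changed least. It stood at 1330, 1274, 1156 and 1225 in the controls and at 1941, 2258 and 3043 in ICI-myocarditis hearts. The controls were tightly grouped, and the lowest ICI-myocarditis library was still above all of them. Means of 1246 ± 74 (n = 4) and 2414 ± 567 (n = 3) differed 1.94-fold. The log2 fold change was 0.93 (SE 0.197, limma adjusted p = 0.0136). Without ICI-myocarditis 3 it was 0.75 and the call was lost (adjusted p = 0.0612).

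**Figure D1:**
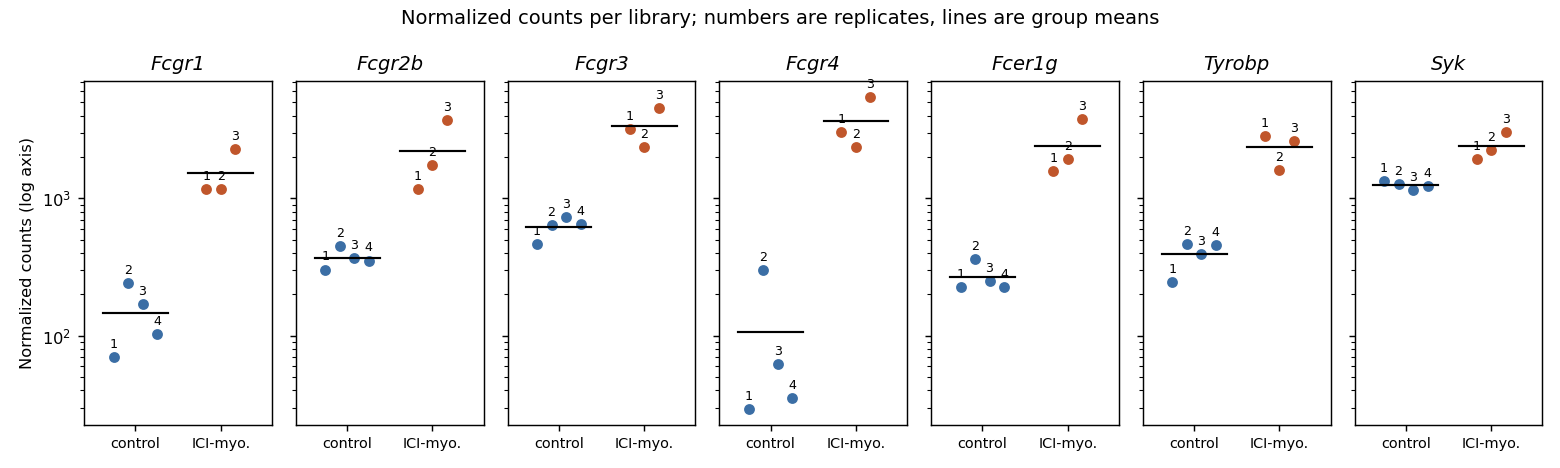
Normalized counts of the 7 genes in each library on a log axis; points are libraries numbered by replicate (blue control, orange ICI-myocarditis) and lines are group means. In every panel the ICI-myocarditis points lie above all controls, and control 2 stands out in the Fcgr4 panel at 302.

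The authors' deposited table gave log2 fold changes of 3.39 for Fcgr1, 2.59 for Fcgr2b, 2.44 for Fcgr3 and 5.08 for Fcgr4. For Fcer1g, Tyrobp and Syk the authors' deposited table gave 3.18, 2.60 and 0.95. Syk had the largest adjusted p-value of the 7 in the authors' deposited table, at 0.000369.

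Levels of different genes were compared per kilobase of the first-numbered transcript. In controls the order was Tyrobp (mean 693 normalized counts per kilobase), Fcgr3 (459.7), Fcer1g (395), Syk (243), Fcgr2b (104), Fcgr4 (85.4) and Fcgr1 (56.6). Tyrobp overlapped Fcgr3 across libraries, Fcgr3 overlapped Fcer1g, Fcgr2b overlapped Fcgr4 and Fcgr4 overlapped Fcgr1. The mean of Fcgr4 exceeded that of Fcgr1 through control 2 alone (241 against 93.9). In controls 1, 3 and 4 Fcgr4 was the lower, at 23.3, 49.8 and 27.9 against 26.9, 65.6 and 40.1. In ICI-myocarditis hearts the order was Tyrobp (4198), Fcer1g (3584), Fcgr4 (2894), Fcgr3 (2488), Fcgr2b (626), Fcgr1 (594) and Syk (471). There, only Fcgr3 and Fcgr2b were neighbours whose libraries did not overlap. With the length of all annotated exons in place of the transcript, the control mean of Fcgr4 moved above that of Fcgr2b. Only in control 2 was Fcgr4 the higher of the pair. Among the ICI-myocarditis means, Fcgr4 moved above Fcer1g and Fcgr1 above Fcgr2b.

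The make-up of the 4 IgG receptors shifted toward Fcgr4. Per kilobase, Fcgr4 made up 4.86, 25.8, 6.56 and 4.29% of their sum in controls 1 to 4 and 43.7, 41.0 and 45.2% in ICI-myocarditis 1 to 3. Fcgr3 made up 71.7, 50.5, 71.2 and 74.2% in controls and 42.3, 38.2 and 34.8% in ICI-myocarditis hearts. Fcgr2b made up 17.9, 13.7, 13.6 and 15.3% in controls and 5.96, 10.9 and 10.9% in ICI-myocarditis hearts. The groups did not overlap for these 3 shares, which are given as a description with no test. All 4 shares are parts of 1 sum, so a larger share of Fcgr4 leaves less for the others. The 3 are therefore not separate results. Control 2 lay nearest the ICI-myocarditis libraries for Fcgr4 and Fcgr3. The share of Fcgr1 overlapped between groups, at 5.61 to 10.1% in controls and 8.05 to 9.97% in ICI-myocarditis hearts.

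**Figure D2:**
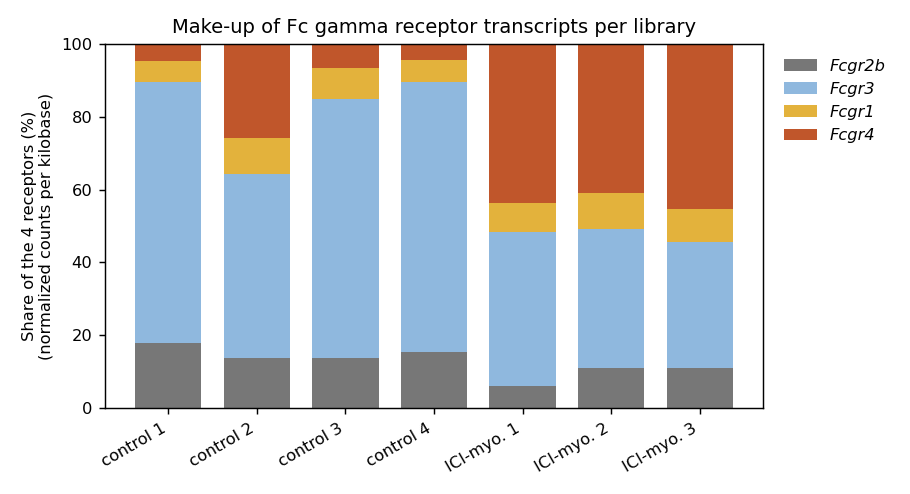
Share of the summed normalized counts per kilobase of the 4 IgG receptors taken by each receptor, in percent, 1 bar per library. Fcgr4 takes 41.0 to 45.2% in the ICI-myocarditis bars and 4.29 to 25.8% in the control bars, control 2 being the highest of these.

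Whether activating receptors gained on the inhibitory one was asked through 3 ratios of normalized counts, each to Fcgr2b. None of the 3 passed its test, a two-sided exact permutation of the library labels, which can give no p below 0.0286. Fcgr4 over Fcgr2b was 0.0963, 0.668, 0.171 and 0.0993 in controls 1 to 4 and 2.60, 1.34 and 1.48 in ICI-myocarditis 1 to 3. The groups lay apart, with control 2 the nearest control. The log2 difference of the means was 3.22 (exact permutation p = 0.0571, 0.0857 adjusted over the 3 ratios), and 3.84 without control 2.

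Fcgr1 over Fcgr2b was 0.229, 0.537, 0.465 and 0.294 in controls and 0.987, 0.671 and 0.612 in ICI-myocarditis hearts. The groups lay apart by a small gap between control 2 and ICI-myocarditis 3. The log2 difference was 1.03 (exact permutation p = 0.0571, 0.0857 adjusted). Fcgr3 over Fcgr2b was 1.52, 1.40, 1.99 and 1.84 in controls and 2.7, 1.33 and 1.22 in ICI-myocarditis hearts. Here the groups overlapped: ICI-myocarditis 1 was above all controls and the other two below them. The log2 difference was -0.03 (exact permutation p = 0.943, also after adjustment), and it was positive without control 3 (0.05), control 4 (0.01), ICI-myocarditis 2 (0.12) or ICI-myocarditis 3 (0.18).

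**Figure D3:**
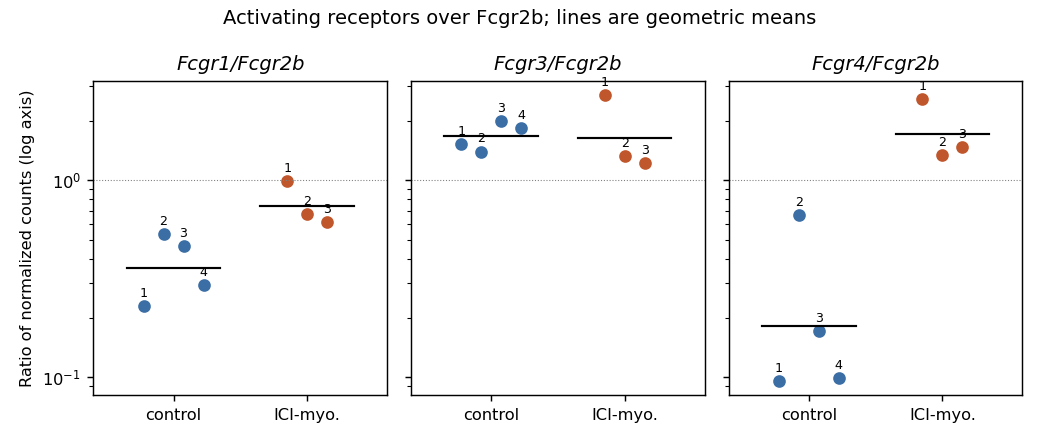
Ratio of normalized counts of Fcgr1, Fcgr3 and Fcgr4 to Fcgr2b in each library on a log axis; lines are geometric means and the dotted line is a ratio of 1. The groups are apart for Fcgr1 and Fcgr4 and overlap for Fcgr3, and ICI-myocarditis 1 is highest in all panels.

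ICI-myocarditis 1, the library with the lowest Fcgr2b of its group, had the highest of all 3 ratios. The geometric mean of the 3 activating receptors over Fcgr2b was 0.327, 0.796, 0.544 and 0.382 in controls and 1.90, 1.06 and 1.03 in ICI-myocarditis hearts, given with no test. Summed per kilobase, activating receptors stood at 4.60, 6.31, 6.37 and 5.53 times Fcgr2b in controls and at 15.8, 8.20 and 8.21 times in ICI-myocarditis hearts. Both summaries include Fcgr4, whose log2 ratio difference was 3.22, against 1.03 for Fcgr1 and -0.03 for Fcgr3. They therefore do not show that each activating receptor gained on Fcgr2b.

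The receptors were also set against their shared adaptor and kinase, again with no test. Summed activating receptors per kilobase stood at 1.17, 1.5, 1.78 and 1.63 times Fcer1g in controls and at 2.24, 1.43 and 1.55 times in ICI-myocarditis hearts. These ranges overlapped, with ICI-myocarditis 1 alone above the controls. Fcgr2b over Fcer1g, in normalized counts, was 1.34, 1.25, 1.47 and 1.55 in controls and 0.747, 0.917 and 0.991 in ICI-myocarditis hearts, with the groups apart. Syk over Fcer1g was 5.86, 3.53, 4.64 and 5.38 in controls and 1.23, 1.18 and 0.811 in ICI-myocarditis hearts, also apart. Fcer1g over Tyrobp overlapped, at 0.495 to 0.915 in controls and 0.552, 1.18 and 1.43 in ICI-myocarditis hearts.

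Genes with the most similar pattern were ranked by the root-mean-square difference of centred log2 values over the 7 libraries, among 13948 genes. Nearest to Fcgr4 were Prf1 (0.353), Slamf8 (0.408) and Cd3g (0.426), and nearest to Fcgr1 were Tlr13 (0.146), C4b (0.181) and Tnfsf13b (0.191). Fcgr2b was most like Cd68 (0.127), Tlr8 (0.138) and Tfec (0.161), and Fcgr3 was most like Tspan33 (0.156), Il22ra1 (0.172) and Fcrla (0.208). Fcrla had no control above 7.82 normalized counts and entered the test only through the ICI-myocarditis libraries. Fcer1g was most like Panx1 (0.0979), Treml2 (0.170) and Pld4 (0.203). Tyrobp was most like Fgl2 (0.179), Snx10 (0.225) and Ms4a6c (0.236), and Syk was most like Stk4 (0.0657), Daglb (0.0860) and Arpc2 (0.0902). Among the members themselves, Fcgr3 and Tyrobp were 0.253 apart, while Fcgr4 and Syk were 2.55 apart. No gene lay as near to Fcgr4 as the nearest gene lay to each of the other 6. That follows in part from the measure, which depends on the size of the fold change, since only 24 genes tested had a larger one than Fcgr4.

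Other Fc receptors did not move as a block. Of 14 with a row, 8 were tested: 3 were called higher, 1 lower (4.00% of all genes tested were called lower) and 4 were not called. The median of the 8 was 0.51. Trim21, a cytosolic antibody receptor, rose (log2 fold change 1.64, limma adjusted p = 0.0117). Fcrlb and Fcrla, Fc receptor-like genes, were called at 3.44 and 2.55 but were scarce, with no control above 7.82 normalized counts. They entered the test only through the ICI-myocarditis libraries, as did Fcrl1, so their calls follow in part from the filter. Of the other 5 tested, 1 was called higher, and their median was -0.16. Fcrls fell: it stood at 351, 291, 413 and 388 in controls and at 103, 121 and 20.6 in ICI-myocarditis hearts. Its log2 fold change was -2.46 (SE 0.540, limma adjusted p = 0.0158), -1.67 without ICI-myocarditis 3, and the call was lost without control 3 (adjusted p = 0.0549). Fcgrt, the neonatal Fc receptor that recycles IgG, stood at 2953 ± 454 (n = 4) and 2788 ± 158 (n = 3) normalized counts (log2 fold change -0.07, limma adjusted p = 0.841). Fcer1a and Ms4a2, which build the IgE receptor of mast cells, reached at most 14.3 and 2.02 and were not tested.

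Receptors that pair with Fcer1g or Tyrobp, or carry a single ITAM tyrosine, were read as a list that also held the adaptor Hcst. Of its 18 genes tested, 12 were called higher and none lower, with a median of 2.58 against -0.0241 over all genes tested. Pira2, 1 of the 12, entered the test only through the ICI-myocarditis libraries. In 9 of the 18, 6 of them called, fewer than 3 controls reached the filter minimum of 10. Sirpb1a was at 5.32 and Klrd1, a natural killer receptor chain, at 5.29. Ncr1 and Klrc2, also natural killer receptor genes, were at 1.05 and 2.57 and not called (limma adjusted p = 0.395 and 0.127). Control 2 was the highest control for both, at 44.4 and 25.9 normalized counts. Clec4e, the Mincle receptor that signals through Fcer1g, was at 4.48 (3.51 and not called without ICI-myocarditis 3, adjusted p = 0.0604, and 5.21 without ICI-myocarditis 2). Klrk1, known as NKG2D, was at 4.33. Without control 2 the log2 fold changes of Sirpb1a, Klrd1, Clec4e and Klrk1 were 6.35, 6.09, 5.16 and 5.23. Trem2, which signals through Tyrobp, stood at 33.3, 90.05, 73.7 and 88.8 in controls and at 440, 325 and 788.5 in ICI-myocarditis hearts (log2 fold change 2.84, limma adjusted p = 0.00426). Hcst, the DAP10 adaptor, was at 3.44 (limma adjusted p = 0.00897), and at 4.05 without control 2.

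The other ITAM chains belong to the antigen receptors of T and B cells. Of 7 genes, counting Zap70, 6 were called higher, with a median of 5.17. Cd3e, Cd3g and Cd3d, chains of the T cell receptor complex, were at 5.61, 5.20 and 5.17, and Zap70, the T cell relative of Syk, was at 5.27. Without control 2 these were 6.67, 6.00, 6.02 and 6.31, and Cd3e was at 4.97 without control 4. Zap70 stood at 10.1, 169, 8.93 and 6.26 in controls and at 727.5, 652 and 844 in ICI-myocarditis hearts. Its ratio to Syk was 0.00758, 0.133, 0.00773 and 0.00511 in controls and 0.375, 0.289 and 0.277 in ICI-myocarditis hearts, with the groups apart. Cd79a, an ITAM chain of the B cell receptor, was at 0.34 and not called (limma adjusted p = 0.644). Cd79b, the other B cell receptor chain of the list, was called at 1.56 (limma adjusted p = 0.031). It kept its call in 12 of 18 alternatives.

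Among 34 kinases, adaptors and enzymes downstream, 24 were called higher and none lower, with a median of 1.89. The largest were the T cell adaptor Lat (4.90, not called by edgeR at an adjusted p of 0.0597), the kinase Lck (4.34), the adaptor Grap2 (4.25) and the myeloid Src family kinase Fgr (4.17, not called without ICI-myocarditis 3 at an adjusted p of 0.0552). Without control 2 they were at 5.98, 5.15, 5.08 and 5.04. Btk, a kinase of myeloid and B cells, was at 2.39. Plcg2, the phospholipase C of myeloid and B cells, stood at 651, 856, 601 and 568 in controls and at 1326, 1781 and 2897 in ICI-myocarditis hearts (log2 fold change 1.52, limma adjusted p = 0.00825). Its relative Plcg1, chosen after its values were seen, was at -0.36 and not called (limma adjusted p = 0.338). Vav1, the leukocyte form of the Vav exchange factors, was at 2.93, while Vav2 and Vav3 were at 0.32 and 0.03 and not called, a trio also chosen after their values were seen.

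Lyn, a Src family kinase that phosphorylates both ITAMs and ITIMs, was called narrowly, at 1.02 (limma adjusted p = 0.0462). It missed the threshold in 12 of 18 alternatives, with adjusted p-values up to 0.187. Card9, the adaptor between Syk and NF-kappaB, was at 1.07 and not called (limma adjusted p = 0.105), but was called without control 2 (adjusted p = 0.0158).

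Inhibitory receptors and enzymes rose alongside. Of 28 tested, 23 were called higher and none lower, with a median of 2.41. Cd300lf was at 5.78 (not called without ICI-myocarditis 3, adjusted p = 0.0563), Cd72 at 4.33, the phosphatase gene Ptpn22 at 4.16 and Clec12a at 3.87. Cd300lf was at 6.94 without control 2 and at 4.96 without control 3, and Ptpn22 was at 4.95 without control 2. Inpp5d, whose product SHIP1 is recruited by Fcgr2b, stood at 888, 1477, 607 and 529 in controls and at 2626, 2736 and 4710 in ICI-myocarditis hearts (log2 fold change 2.00, limma adjusted p = 0.00823). Ptpn6, encoding the phosphatase SHP-1, stood at 149, 752.5, 304 and 229 in controls and at 1846, 1876 and 3238 in ICI-myocarditis hearts (2.91, limma adjusted p = 0.00597). For both phosphatases control 2 was the high control and the groups did not overlap. Their broadly expressed relatives Inppl1 and Ptpn11, chosen after their values were seen, were at -0.58 and -0.13 and not called (limma adjusted p = 0.157 and 0.804).

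**Figure D4:**
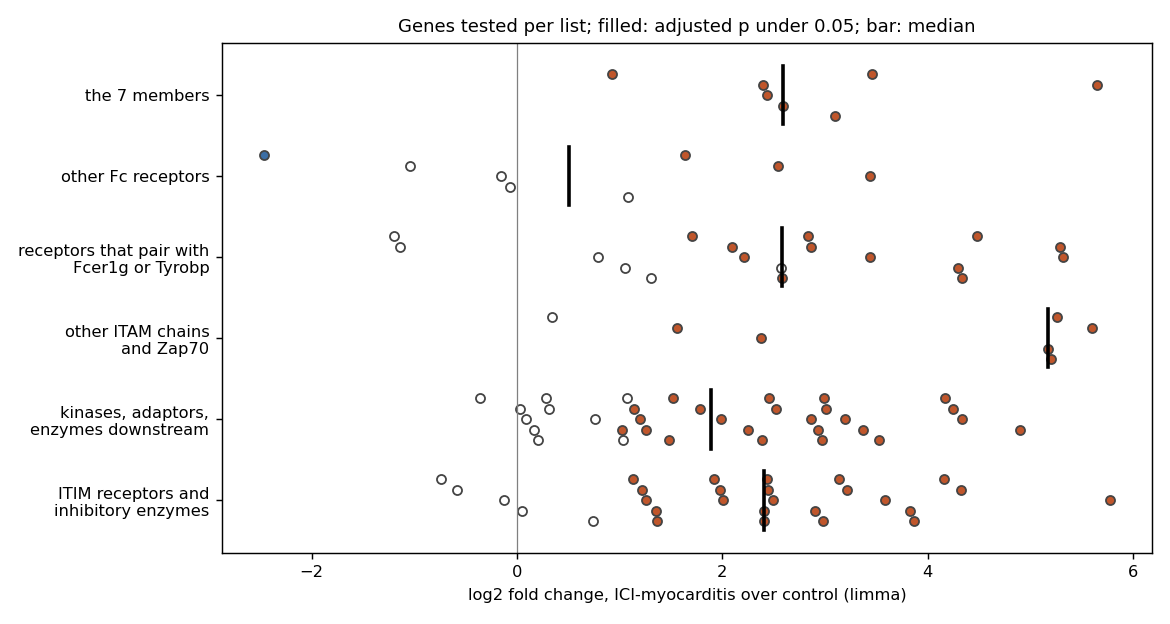
Log2 fold change (ICI-myocarditis over control, limma) of each gene tested in 6 groups; filled points had an adjusted p under 0.05 and bars are medians. The other ITAM chains with Zap70 have the highest median, 5.17, and the other Fc receptors the lowest, 0.51, with Fcrls alone filled on the negative side.

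Ligands of the receptors were covered thinly: 4 of 15 had a row, and 11 immunoglobulin symbols matched none. Igj, the J chain that joins IgM and IgA, stood at 10.1, 19.7, 11.2 and 6.26 in controls and at 785, 250 and 383 in ICI-myocarditis hearts (log2 fold change 5.15, SE 0.486, limma adjusted p = 0.00251). Ptx3, a pentraxin that binds Fc gamma receptors, was at 2.72 (limma adjusted p = 0.0147), and was not called without ICI-myocarditis 2 or 3 (adjusted p = 0.0623 and 0.0762). Apcs, serum amyloid P, was at 0 in all 7 libraries. Igj belongs to IgM and IgA, so its level does not measure IgG. It is also 1 of 7 plasma cell markers, of which 6 were tested and 2 called higher. The other called was Pou2af1 (2.07), with no control at the filter minimum. Mzb1, Derl3, Sdc1 and Prdm1 were at 0.79, 0.63, 0.59 and 1.31 and not called. The summed markers, Igj included, stood at 414 to 957 in controls and 1407 to 2120 in ICI-myocarditis hearts.

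Markers of cells that can carry these receptors were read in the same libraries. Of 19 macrophage or monocyte markers, 13 were called higher and 1 lower, with a median of 2.28, and their summed level was 17117 to 23301 in controls and 62863 to 96203 in ICI-myocarditis hearts. Lyz2, the most abundant of them, was at 1.40 (not called without ICI-myocarditis 1 or 3, adjusted p = 0.0697 and 0.0646) and C1qa at 2.55. The lower one was Cd163, at -0.92, which was not called with the replicate number as a block (adjusted p = 0.0626). All 19 had a smaller log2 fold change than Fcgr4. Summed neutrophil markers stood at 63.5 to 224.5 in controls and 333.5 to 908.5 in ICI-myocarditis hearts, with 1 of 3 tested called higher. That gene was Csf3r, at 282, 462 and 820 in ICI-myocarditis hearts (log2 fold change 2.91, not called without ICI-myocarditis 3 at an adjusted p of 0.0653). S100a8 and S100a9 were at -0.20 and -0.62, not called, and never exceeded 37.5 and 56.3. Natural killer cell markers summed to 16.3 to 279 and 463 to 974, with 3 of 5 called higher, all 5 with fewer than 3 controls at the filter minimum, and Klra4 and Klra8 at 0 in every library. Those called were Eomes, Klre1 and Gzma. Ncr1 and Klrb1c, at 1.05 and 2.11, overlapped between groups and were not called (limma adjusted p = 0.395 and 0.0934). For Klrb1c, too, control 2 was the highest control, at 35.8 normalized counts. B cell markers overlapped, at 238 to 719 and 511 to 989.5, with 2 of 8 called higher, and mast cell or basophil markers overlapped too, with 1 of 6 called higher, 2 lower and Mcpt8 at 0 throughout. Summed dendritic cell markers overlapped, at 714 to 2834 and 2716 to 4428, with 4 of 7 called higher. Of 8 endothelial markers, 4 were called lower, with a median of -1.07. T cell markers, 9 of 9 called higher, summed to 339 to 1923 and 7932 to 12054, the top of the control range being control 2. The part of these cells in the rise of the 7 genes was not tested.

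**Figure D5:**
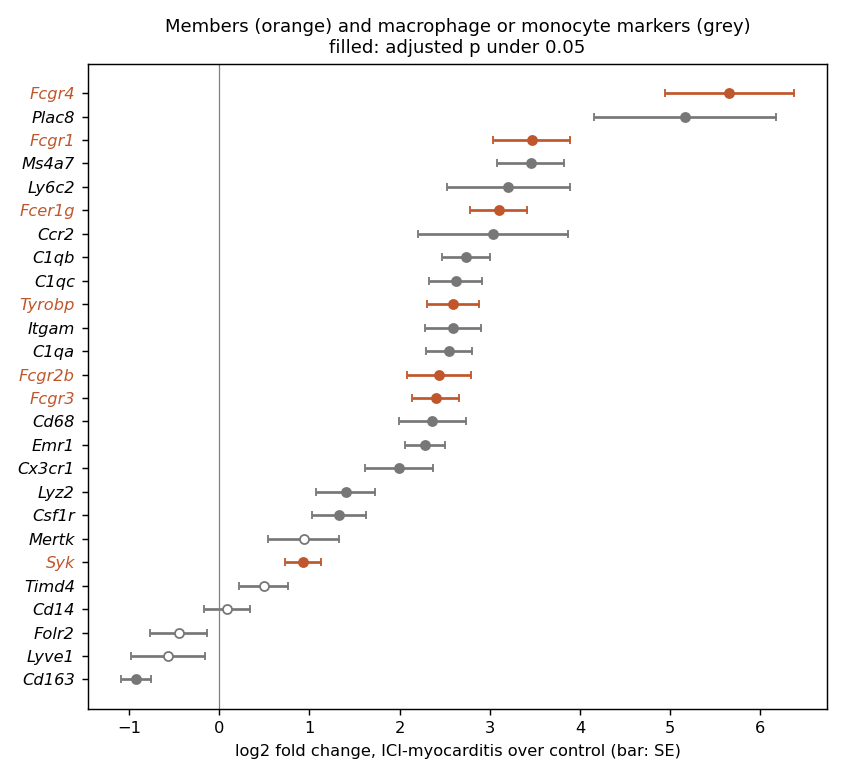
Log2 fold change with SE (ICI-myocarditis over control, limma) of the 7 genes in orange and of 19 macrophage or monocyte markers in grey; filled points had an adjusted p under 0.05. Fcgr4 at 5.65 lies above all markers, with its SE bar overlapping that of Plac8 at 5.16. Fcgr2b, Fcgr3 and Tyrobp lie among C1qa and Itgam, and Syk at 0.93 lies near the lower end.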

How the data were processed

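Ventricular RNA of 4 control and 3 ICI-myocarditis mice was sequenced as stranded total RNA, per the labels. The submitters' processing notes name STAR 2.7.3 and GRCm38 (mm10); the counting program and annotation are not given in the sources used here. The deposited signal of each library is its gene counts divided by 1 size factor, as the values show. Per the file headers, the table also gives log2 fold changes, their standard errors, a test score and p-values, all deposited by the authors. Whole reads, within 0.1, were recovered for 100% of values. For control 1 the size factor is so near 1 that whole multiples are a weaker sign of recovery. Genes with a few reads in controls carry large counting error.

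Genes that reached 10 normalized counts in 3 or more libraries entered limma 3.58.1 (R 4.3.3, trend and robust variance) on log2(normalized count + 1), with Benjamini-Hochberg adjustment and a threshold of 0.05. Adding 1 makes the fold changes of low genes smaller, but values on this scale are not always the lowest. Over the alternatives Zap70 (5.27) ranged from 3.90 to 6.31 and Cd3e (5.61) from 4.22 to 6.67. Ratios used exact permutation tests on log2 of the ratio after adding 1 to each count. Alternatives were other pseudocounts, filters and scalings, edgeR 4.0.16, DESeq2 1.42.0, voom, a replicate block and leaving out each library. Tests were checked on 10 simulated data sets with 200 changed genes, the same spread for every gene and no library like control 2. On average 5.55% of limma calls were wrong, and 97.9% of log2 changes of 2 and 24.9% of log2 changes of 1 were recovered. A first single run had missed the limit set for wrong calls by limma, and the mean over 10 runs was used after that. The 7 genes and all lists were chosen with earlier results of these data known. Named genes are the 7, up to 4 called genes per list with the largest fold change, a fixed set of 11 pathway genes, the 3 most similar genes per member, and marker genes at 0 or most abundant; a few others are marked or serve as examples of a list, and some results are not reported here.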

Additional observations from a re-analysis of the deposited data

How the results depend on the processing

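Over 18 alternatives each, Fcgr1 (log2 fold change 3.14 to 3.76), Fcgr2b (1.98 to 2.81), Fcgr3 (2.05 to 2.63), Fcgr4 (5.05 to 6.37), Fcer1g (2.73 to 3.36) and Tyrobp (2.38 to 2.85) stayed called and positive. Syk ranged from 0.75 to 1.09, and from 0.75 to 1.07 with a library left out. Its call was lost without ICI-myocarditis 3 and with the replicate number as a block (0.92, adjusted p = 0.0744), so 6 to 7 of the 7 were called. Deviations of same-numbered libraries correlated at -0.271, -0.206 and -0.0784, and those of differently numbered pairs at -0.477 to 0.451. So few pairs cannot show whether a shared number stands for a shared litter or batch. The block gave 1780 calls over all genes against 2397. Voom gave 4003 calls and DESeq2 3444, and leaving out each library gave 986 to 3340, with 1508 without control 1, 1298 without control 3, 1396 without ICI-myocarditis 2 and 986 without ICI-myocarditis 3. Of all calls 74.6% were higher, against 63.9% with DESeq2 and 62.1% with voom. Scaling by library total moved the median log2 fold change of all genes by 0.158. The Fcgr3 over Fcgr2b difference (-0.03) turned positive without control 3 (0.05), control 4 (0.01), ICI-myocarditis 2 (0.12) or ICI-myocarditis 3 (0.18) and with the block (0.01), over a leave-one-out range of -0.39 to 0.18. Fcgr1 over Fcgr2b stayed at 0.82 to 1.22 and Fcgr4 over Fcgr2b at 2.92 to 3.84; with a library left out these tests are too small to pass. Among other Fc receptors, 1 was called higher without any 1 ICI-myocarditis library, where Fcrla and Fcrlb fell below the filter, and 0 were called lower without control 3. Of the ligands, 1 was called without ICI-myocarditis 2 or 3. DESeq2, and leaving out control 4, each called 1 inhibitory gene lower. Of 43 called genes checked beside the members, 30 kept their call in every alternative that tested them. The cause of these changes was not tested.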
